A study of Mus musculus with 4 samples.

Results

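Chemokine ligands are secreted proteins that draw leukocytes along a concentration gradient, and myeloid cells make many of them in an inflamed tissue. The measurements here concern 10 such genes, Cxcl9, Cxcl10, Cxcl16, Ccl2, Ccl6, Ccl8, Ccl9, Ccl12, Ccl17 and Ccl22, out of 31053 features counted. The genes were chosen by name, and all 10 were found in the feature list by symbol. They were measured in CD45+ leukocytes, purified by flow sorting out of the pancreas of pre-diabetic females aged 12 weeks. One library came from Ocabfl/fl animals, called control, and the other from Ocabfl/fl.CD4-Cre animals, called CD4-Cre, with 4 mice in each group. All animals carried floxed alleles of Ocab (now Pou2af1), which encodes a B lymphocyte transcriptional coactivator. Cre under Cd4 control acts in T cells, so the myeloid cells described below are not its intended target. A further pair of libraries, of T cells from pancreatic lymph nodes of 8-week-old females with the same genotypes (5 mice each), was used only where named.

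As background, Cxcl9 and Cxcl10 are interferon-inducible ligands of CXCR3, a receptor of activated T cells, and Cxcl16 is the transmembrane ligand of CXCR6. Ccl2, Ccl8 and Ccl12 belong to the monocyte chemoattractant family, whose best known receptor is CCR2. Ccl6 and Ccl9 are mouse CC chemokines that bind CCR1, and Ccl17 and Ccl22 are ligands of CCR4 made by dendritic cells. Islet infiltration in autoimmune diabetes involves macrophages and dendritic cells as well as T cells, and CXCR3 ligands are well known in that setting.

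After filtering, 4004 barcodes remained in the control library and 6240 in CD4-Cre, with medians of 3594 and 3596 unique molecular identifiers (UMIs) per barcode. The libraries shared 36 barcode sequences. Pou2af1, the targeted gene, was counted in T barcodes at 11.3 CPM (106 UMIs; CPM is a gene's UMIs scaled to all UMIs of the group) in control and 3.09 CPM (51 UMIs) in CD4-Cre. Barcodes were gated by marker UMIs. A C1q gate asked for 5 or more UMIs of C1qa, C1qb and C1qc, a cDC1 gate for 2 or more of Xcr1 and Clec9a, a cDC2 gate for 2 or more of Cd209a, Clec10a and Mgl2, and a monocyte gate for 2 or more of Ace and Ear2. T barcodes had 2 or more UMIs of Cd3d, Cd3e and Cd3g and met no myeloid gate. The control and CD4-Cre libraries held 146 and 134 barcodes in the C1q gate, 49 and 70 in the cDC1 gate, 192 and 234 in the cDC2 gate, 140 and 171 in the monocyte gate, and 2319 and 4041 T barcodes. With 1 library per group no test between genotypes could be made. Each interval below is a 95% interval for counting error only. Many UMIs of one gene often came from a single barcode, so these intervals are narrower than the spread between cells, and they hold nothing of the spread between animals.

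The gates were checked against marker genes that the gates did not use. The cDC1 gate held cDC1 markers at 2997 CPM in control and 3493 in CD4-Cre, summed over 8 genes, and macrophage markers at 4522 and 2224 CPM. These macrophage markers stood at 17572 and 8327 CPM in cDC1 barcodes that met another gate as well, while barcodes of the cDC1 gate alone held 646 and 828 CPM of them beside 3590 and 4050 CPM of cDC1 markers. The cDC2 and monocyte gates did not match their names alone either. The cDC2 gate held macrophage markers at 18880 CPM in control, beside 1147 CPM of cDC2 markers. Lyz2 alone made up 13619 CPM of that macrophage sum, and 3531 CPM of the one in the control cDC1 gate. Ccr2 alone made up 530 CPM of the cDC2 markers in the control cDC2 gate. The lists hold different genes, so their sums do not rank one cell identity over another. The gates overlapped: 96 of the 146 control C1q barcodes also met the cDC2 gate (65.8%), and 97 of 134 did in CD4-Cre (72.4%). The C1q barcodes that also met the monocyte gate made up 26.7% in control and 48.5% in CD4-Cre. Barcodes meeting the monocyte gate alone held monocyte markers at 3240 and 3114 CPM, while those meeting the C1q and monocyte gates together held only 242 and 209 CPM. The gates are therefore named here by their rule. Results are also given for barcodes split by which gates they met, a split chosen after the values were seen. In that split, barcodes of the C1q and monocyte gates may also meet the cDC2 gate. Barcodes of the Fscn1 and Cacnb3 group, genes of mature dendritic cells, met no gate and had 2 or more UMIs of those genes.

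The ligands fell on different gates. Cxcl9 and Cxcl16 were highest in the cDC1 and C1q gates, Ccl6 and Ccl9 in the monocyte gate, Ccl8 and Ccl12 in the C1q gate, and Ccl22 in the cDC1 gate, in the control library. Ccl2 lay at similar levels in the C1q, cDC2 and monocyte gates, between 108 and 114 CPM in control. In T barcodes, each ligand was at 22.3 CPM or less in both libraries. Barcodes meeting a myeloid gate made up 8.74% of the control library and 6.19% of CD4-Cre. They held 83.9% and 84.1% of all Cxcl9 UMIs, 79.2% and 90.1% of Ccl6 UMIs, and 97.9% and 99.5% of Ccl12 UMIs in those libraries. Cxcl10 was less restricted to them, at 70.9% and 56.5%, with 18.2% and 22.5% of its UMIs in T barcodes.

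**Figure D1:**
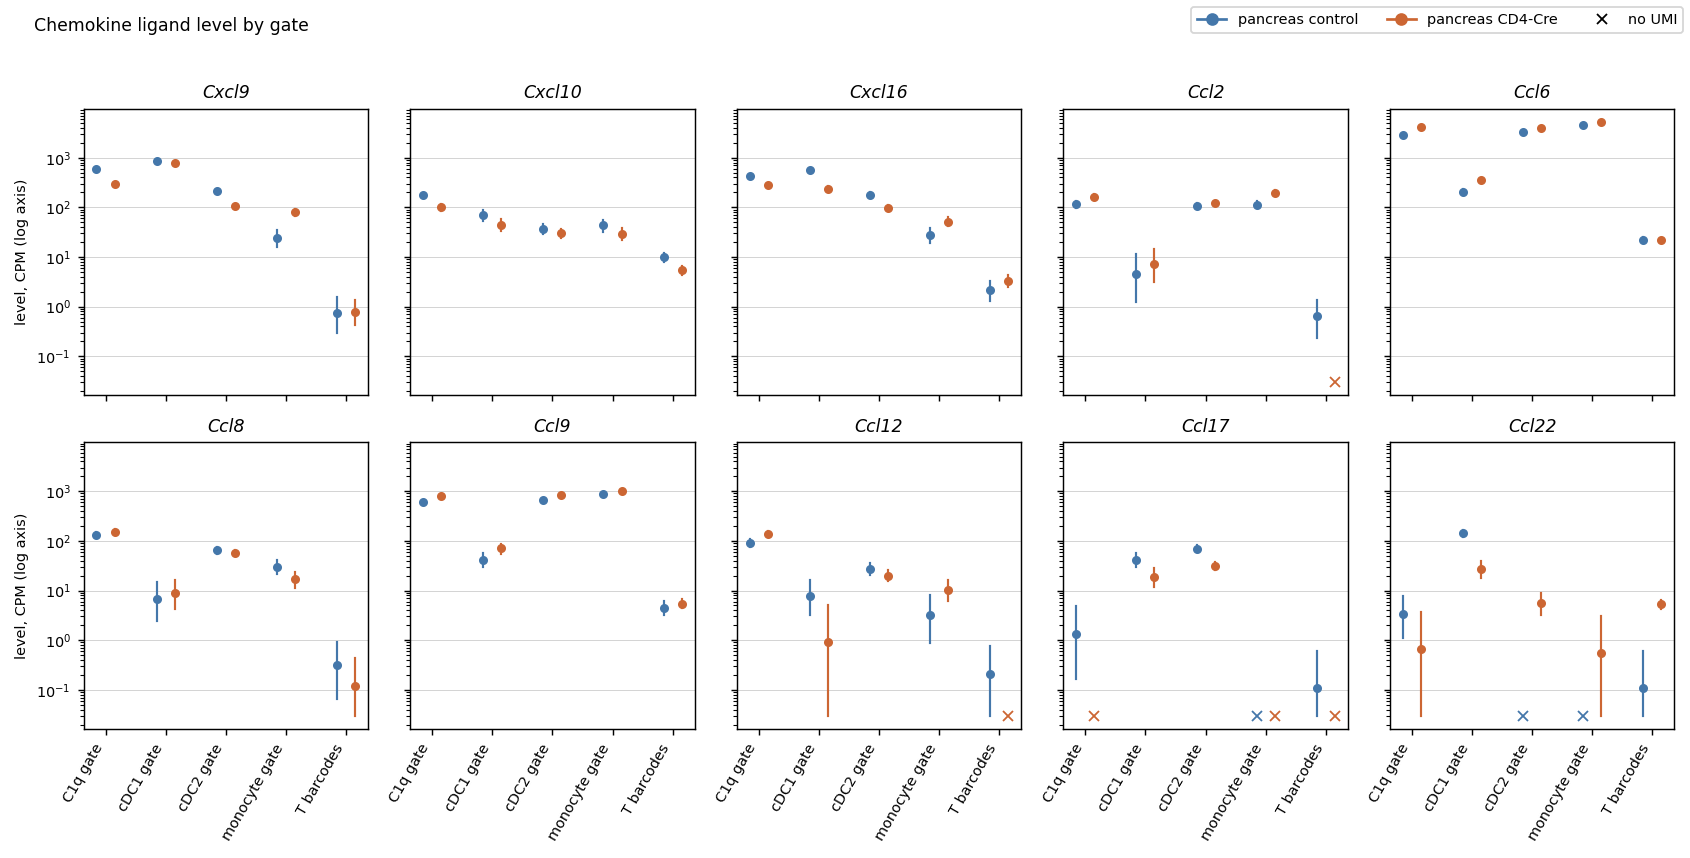
Level of each ligand in CPM (log axis) in the 5 gates, for the control (blue) and CD4-Cre (orange) pancreas libraries; points are summed UMIs over summed depth, lines are 95% Poisson intervals, and crosses mark gates with no UMI. Ccl6 lies between 2896 and 5161 CPM in the C1q, cDC2 and monocyte gates of both libraries, while Ccl17 and Ccl22 lie at or under 3.36 CPM in the C1q and monocyte gates.

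Among the CXCR3 ligands, Cxcl9 (ENSMUSG00000029417, chr5:92321347-92328079, minus strand, GRCm38) and Cxcl10 (ENSMUSG00000034855, chr5:92346638-92348889, minus strand) are protein-coding neighbours on chromosome 5. The 250 bases upstream of their starts in RefSeq (GRCm38.p6) are shown because the 2 genes were the closest pair of CXC ligands across barcodes. Capitals mark matches to the interferon-stimulated response element, GAAANNGAAA, and to the NF-kB consensus, both searched on either strand. The windows are chr5:92328080-92328329 for Cxcl9 and chr5:92348890-92349139 for Cxcl10, both on the minus strand and written 5′ to 3′.
Cxcl9: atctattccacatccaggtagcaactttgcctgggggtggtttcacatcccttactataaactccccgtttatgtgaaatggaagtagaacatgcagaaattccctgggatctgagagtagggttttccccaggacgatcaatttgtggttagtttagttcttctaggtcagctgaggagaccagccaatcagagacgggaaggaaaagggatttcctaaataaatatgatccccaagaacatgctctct
Cxcl10: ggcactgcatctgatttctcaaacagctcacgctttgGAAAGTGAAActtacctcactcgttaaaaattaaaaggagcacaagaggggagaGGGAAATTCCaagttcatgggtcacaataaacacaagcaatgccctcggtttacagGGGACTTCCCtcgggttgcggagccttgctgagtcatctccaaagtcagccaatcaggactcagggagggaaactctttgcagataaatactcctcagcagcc
The Cxcl10 window held 1 response element, starting 213 bases before the gene's start, and NF-kB matches starting 159 and 103 bases before it. The Cxcl9 window held neither pattern in these letters. Among the 8 ligands with a sequence, the response element was found in 1, and it was found in 2.98% of 32851 windows of the same length. The NF-kB consensus was found in 2 of the 8, Cxcl10 and Ccl9, and in 3.90% of all windows. TGANTCA, the AP-1 pattern, was found in the same 2 genes and in 6.75% of all windows, and TTCNNNGAA, the interferon-gamma-activated site, in Ccl17 alone and in 7.02% of all windows. These matches describe letters and do not show binding.

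Cxcl9 stood at 841 CPM (782 to 904) in the control cDC1 gate and 794 CPM (742 to 848) in CD4-Cre. In the C1q gate its level was 596 CPM (558 to 637) in control and 297 CPM (270 to 325) in CD4-Cre. The cDC2 gate followed with 209 and 105 CPM, the monocyte gate with 24.0 and 79.7 CPM, and T barcodes with 0.746 and 0.789 CPM. Within each library the counting intervals of these 5 gates did not overlap. The ligand was seen in a minority of cDC1 and C1q barcodes, apart from the control cDC1 gate without thinning. After each barcode was thinned to 2000 UMIs, it was seen in 28.6% (16.6 to 43.3) of control and 19.1% (10.6 to 30.5) of CD4-Cre cDC1 barcodes, and in 16.8% (11.1 to 23.9) and 13.6% (8.29 to 20.7) of C1q barcodes. Among thinned T barcodes, taken as a background, the shares were 0.142% and 0.0802%. Without thinning, the shares were 51.0% and 31.4% for the cDC1 gate, 22.6% and 17.2% for the C1q gate, and 0.259% and 0.124% for T barcodes. The median depths were 17602 and 15634 UMIs in the cDC1 gate, 9105 and 9777 in the C1q gate, and 3447 and 3540 in T barcodes.

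Between genotypes, Cxcl9 in the C1q gate had a log2 ratio of CD4-Cre over control of -1.01 (-1.17 to -0.84), and -1.16 without the barcode richest in it in each library. That ratio sat on the 2-fold line and fell short of it under 6 other settings, from -0.998 with edgeR TMM library sizes to -0.85 after thinning. In the cDC1 gate the log2 ratio was -0.084 (-0.23 to 0.059), and in the cDC2 gate -0.99 (-1.20 to -0.78). All 880 cDC1 UMIs of CD4-Cre lay in barcodes that met the cDC1 gate alone, where the levels were 819 CPM in control and 975 CPM in CD4-Cre, whereas 186 of 745 control UMIs lay in 14 cDC1 barcodes that met another gate too. The C1q difference was not shared by all barcodes of the gate either. Where the C1q gate was met alone (37 and 24 barcodes), Cxcl9 stood at 1582 CPM in control and 560 CPM in CD4-Cre, for a log2 ratio of -1.50 (-1.79 to -1.22). Where the cDC2 gate was met too, it was 303 and 395 CPM (log2 ratio 0.38, 0.082 to 0.69). In barcodes of the C1q and monocyte gates, control had 0 UMIs in 38 barcodes and CD4-Cre had 140 UMIs in 5 of 63 barcodes, 96 of them in 1. The monocyte gate repeated these cells: its log2 ratio of 1.73 (1.16 to 2.35) rested on 30 UMIs from 1 control barcode and 146 UMIs from 6 CD4-Cre barcodes.

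Cxcl10 was highest in the C1q gate, at 174 CPM (153 to 196) in control and 102 CPM (86.3 to 119) in CD4-Cre. It stood at 68.9 and 45.1 CPM in the cDC1 gate, 43.2 and 28.9 CPM in the monocyte gate, 37.0 and 29.8 CPM in the cDC2 gate, and 9.92 and 5.40 CPM in T barcodes. The intervals of the monocyte gate overlapped those of the cDC1 and cDC2 gates in both libraries. Few barcodes held most of it: the 5 richest barcodes carried 88.8% of the control C1q UMIs and 97.4% of those in CD4-Cre. The log2 ratio in the C1q gate was -0.77 (-1.07 to -0.48), under 2-fold. Where the C1q gate was met alone the log2 ratio was -1.51 (-1.98 to -1.06), from 212 UMIs in 10 control barcodes and 51 UMIs in 1 CD4-Cre barcode. It was the other way in barcodes of the C1q and cDC2 gates, with 5 UMIs in control and 62 in CD4-Cre, 46 of them in 1 barcode. In the cDC1 gate the log2 ratio of -0.61 (-1.18 to -0.048) turned to 1.72 (0.76 to 2.82) in barcodes meeting that gate alone, from 11 UMIs in control and 48 in CD4-Cre.

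Barcodes with Cxcl9 in the C1q gate also held more of other interferon-gamma response genes. A list of 14 such genes, including Irf1 and guanylate-binding proteins, summed to 1863 CPM in the 33 control barcodes with Cxcl9 and to 518 CPM in the 113 without it. In CD4-Cre the sums were 1512 CPM in 23 barcodes and 680 CPM in 111. Markers of resident macrophages went the other way, at 122 against 3193 CPM in control and 374 against 1144 CPM in CD4-Cre. The barcodes with Cxcl9 were deeper, with medians of 14162 against 8215 UMIs in control and 14731 against 8902 in CD4-Cre. The part of depth in these differences was not tested. Over the whole C1q gate, the interferon-gamma list was at 933 CPM in control and 865 in CD4-Cre, and 0 of 12 genes with enough UMIs were past 2-fold, with a median log2 ratio of -0.092 beside -0.015 for all genes.

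Cxcl16 (ENSMUSG00000018920, chr11:70453983-70459984, minus strand), which exists both as a membrane-bound and as a shed ligand, was spread over more cells. It was seen in 69.2% of control and 63.4% of CD4-Cre C1q barcodes without thinning, and in 42.7% (34.4 to 51.2) and 31.1% (23.3 to 39.7) after thinning. For T barcodes the thinned shares were 0.142% and 0.241%. Control levels were 553 CPM (505 to 605) in the cDC1 gate, 429 CPM (397 to 464) in the C1q gate, 181 CPM in the cDC2 gate, 27.2 CPM in the monocyte gate and 2.13 CPM in T barcodes. CD4-Cre levels were 238 CPM (210 to 269), 288 CPM (262 to 317), 98.3, 51.9 and 3.34 CPM in the same order, so the cDC1 gate was highest in control and not separable from the C1q gate in CD4-Cre. The log2 ratio in the cDC1 gate was -1.22 (-1.44 to -0.998), and -1.32 without the richest barcode of each library. After thinning it was -0.90 (-1.57 to -0.24), under 2-fold, from 47 and 35 UMIs. In the C1q gate it was -0.57 (-0.75 to -0.40), but 0.15 (-0.12 to 0.43) where that gate was met alone. Levels were also high in the Fscn1 and Cacnb3 group, at 943 CPM in 18 control barcodes and 735 CPM in 22 CD4-Cre barcodes.

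Ccl6 (ENSMUSG00000018927, chr11:83587882-83593087, minus strand) and Ccl9 (ENSMUSG00000019122, chr11:83572919-83578636, minus strand) are neighbouring genes on chromosome 11. Their upstream windows, chr11:83593088-83593337 for Ccl6 and chr11:83578637-83578886 for Ccl9, are printed because no other pair of the 10 ligands followed each other as closely across barcodes. Capitals mark the run of 13 bases that the windows share in their best local alignment.
Ccl6: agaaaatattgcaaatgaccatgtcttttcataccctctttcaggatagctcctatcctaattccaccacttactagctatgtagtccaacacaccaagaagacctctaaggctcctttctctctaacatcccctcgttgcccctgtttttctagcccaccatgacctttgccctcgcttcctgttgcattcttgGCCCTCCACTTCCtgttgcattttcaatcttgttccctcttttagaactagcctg
Ccl9: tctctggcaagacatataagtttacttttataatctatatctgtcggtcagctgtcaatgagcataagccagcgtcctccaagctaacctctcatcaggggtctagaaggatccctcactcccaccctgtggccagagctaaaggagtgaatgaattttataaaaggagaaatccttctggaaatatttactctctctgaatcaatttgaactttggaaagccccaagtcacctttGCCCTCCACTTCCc
That alignment covered 17 bases, 16 of them identical. Over the 28 pairs of ligand windows the best alignments held between 7 and 41 identical bases, with the most in Ccl8 with Ccl12.

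Ccl6 was found broadly in macrophage-like barcodes. Its level was 4621 CPM (4503 to 4742) in the control monocyte gate and 5161 CPM (5058 to 5266) in CD4-Cre. The cDC2 gate held 3263 and 4044 CPM, the C1q gate 2896 and 4093 CPM, the cDC1 gate 207 and 355 CPM, and T barcodes 22.1 and 22.3 CPM. The C1q and cDC2 intervals overlapped in CD4-Cre and not in control. Splitting the barcodes showed a steeper pattern: Ccl6 stood at 6309 and 5964 CPM where the C1q and monocyte gates were met, at 6312 and 6114 CPM for the cDC2 and monocyte gates, and at only 333 and 948 CPM for the C1q gate alone. Every one of the 38 and 63 barcodes meeting the C1q and monocyte gates held Ccl6. Neutrophils outside the gates held 4615 and 5121 CPM of it, whereas B barcodes held 33.4 and 3.46 CPM, with 118 of the 134 control UMIs in 1 barcode. Barcodes of the monocyte gate alone held Ccl6 at 1922 and 2148 CPM and neutrophil markers at 16085 and 4841 CPM, summed over 7 genes. The part of neutrophil RNA in the Ccl6 of that gate was not tested.

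Ccl9 followed the same order without the neutrophils. It stood at 872 CPM (821 to 925) in the control monocyte gate and 990 CPM (945 to 1036) in CD4-Cre, at 676 and 825 CPM in the cDC2 gate, 596 and 813 CPM in the C1q gate, 41.8 and 70.4 CPM in the cDC1 gate and 4.48 and 5.46 CPM in T barcodes. Neutrophils held 1 UMI in control and 4 in CD4-Cre (3.20 and 28.0 CPM). Where the C1q and monocyte gates were met, Ccl9 was at 1135 and 1185 CPM, and for the C1q gate alone at 206 and 212 CPM.

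Both genes were higher in the CD4-Cre C1q gate, and under 2-fold: the log2 ratio was 0.50 (0.44 to 0.56) for Ccl6 and 0.45 (0.32 to 0.58) for Ccl9. The make-up of the gate differed as well: barcodes of the C1q and monocyte gates numbered 38 of 146 in control and 63 of 134 in CD4-Cre. Within those barcodes the log2 ratio was -0.081 (-0.15 to -0.011) for Ccl6 and 0.061 (-0.10 to 0.23) for Ccl9, and within the cDC2 and monocyte gates it was -0.046 (-0.12 to 0.030) and -0.026 (-0.20 to 0.15). For the C1q gate alone it was 1.51 (1.17 to 1.86) for Ccl6, where 1 CD4-Cre barcode held 127 of 215 UMIs, and 0.041 (-0.52 to 0.60) for Ccl9. The part of the gate's make-up in the ratios of the whole C1q gate was not tested.

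**Figure D2:**
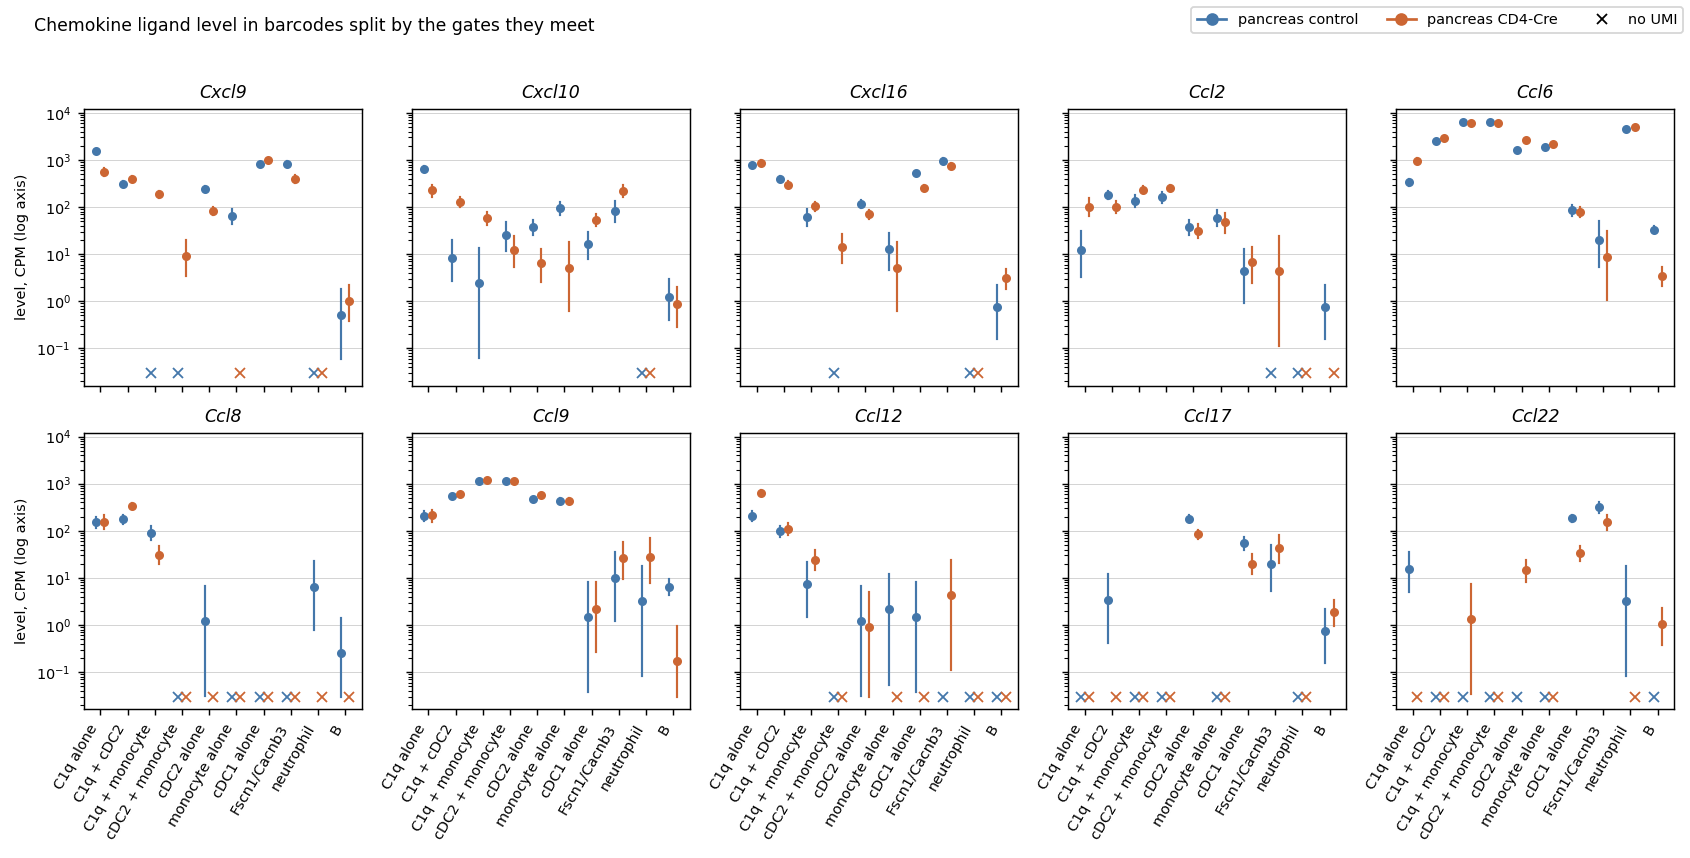
Level of each ligand in CPM (log axis) in barcodes split by the gates they met, plus barcodes of Fscn1 and Cacnb3, neutrophils and B barcodes, for the control (blue) and CD4-Cre (orange) pancreas libraries; lines are 95% Poisson intervals and crosses mark groups with no UMI. Ccl6 and Ccl9 nearly coincide between libraries in the groups that meet the monocyte gate with another gate, whereas in control Cxcl9 and Cxcl10 sit highest for the C1q gate alone, at 1582 and 641 CPM, against 560 and 225 CPM there in CD4-Cre.

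The 3 ligands of the monocyte chemoattractant family differed in where they lay. Ccl2 (ENSMUSG00000035385, chr11:82035571-82037453, plus strand) was at 114 and 161 CPM in the C1q gate, 108 and 123 CPM in the cDC2 gate, and 114 and 198 CPM in the monocyte gate, for control and CD4-Cre in turn. The cDC1 gate held 4 and 8 UMIs, and T barcodes 6 and 0. The log2 ratio was 0.50 (0.21 to 0.79) in the C1q gate and 0.80 (0.51 to 1.09) in the monocyte gate. A single CD4-Cre barcode of the cDC2 and monocyte gates held 133 of the library's 484 Ccl2 UMIs. Without the richest barcode of each library the monocyte gate gave 0.39 (0.060 to 0.72), and the cDC2 gate gave -0.31 in place of 0.18. For the C1q gate alone the log2 ratio was 3.07 (1.52 to 5.06), from 4 UMIs in control and 23 in CD4-Cre, while for the C1q and cDC2 gates it was -0.85 (-1.36 to -0.35).

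Ccl8 (ENSMUSG00000009185, chr11:82115185-82116799, plus strand) was a C1q gate gene, at 132 CPM (114 to 152) in control and 150 CPM (131 to 170) in CD4-Cre. Those CPM stood for 196 UMIs in 40 of 146 control barcodes and 230 UMIs in 20 of 134 CD4-Cre barcodes. One CD4-Cre barcode held 149 of the 230. The log2 ratio was 0.18 (-0.10 to 0.47) with it, and -1.10 (-1.50 to -0.71) once the richest barcode of each library was left out. In the cDC2 gate, which shares those barcodes, the same step moved it from -0.19 to -2.63. Ccl8 was seen in 16.8% (11.1 to 23.9) of thinned control C1q barcodes and in 8.33% (4.23 to 14.4) of those from CD4-Cre, against 0.0473% and 0 of 3741 in T barcodes (a count of 0 there allows up to 0.0986%, the upper exact limit).

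Beside this stood a difference in the resident macrophage list, 8 genes such as Folr2, Lyve1, Cd163 and Cbr2. It summed to 2245 CPM in the control C1q gate and to 973 CPM in CD4-Cre. Of its 8 genes, 5 were lower by 2-fold or more, beside 3.99% of 8591 genes in that gate. Folr2, a folate receptor of tissue-resident macrophages, was at 289 and 45.6 CPM, and the scavenger receptor Cd163 at 175 and 34.5 CPM. In barcodes of the C1q and cDC2 gates the list stood at 4496 CPM in control and 1017 CPM in CD4-Cre. Control C1q barcodes with Ccl8 held the list at 4146 CPM and those without at 1533 CPM, and in CD4-Cre the values were 1795 and 832 CPM. The part of this shift in the Ccl8 values was not tested.

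Ccl12 (ENSMUSG00000035352, chr11:82101845-82103400, plus strand) also lay in the C1q gate, at 91.5 CPM (76.8 to 108) in control and 141 CPM (123 to 161) in CD4-Cre. It stood at 27.5 and 19.98 CPM in the cDC2 gate and at 10.4 CPM or less in the cDC1 gate, the monocyte gate and T barcodes. The C1q log2 ratio of 0.62 (0.30 to 0.94) moved to 0.21 (-0.19 to 0.61) without the richest barcode of each library, which held 38 of 136 control UMIs and 99 of 216 CD4-Cre UMIs. The number of C1q barcodes with Ccl12 was 30 in control and 19 in CD4-Cre, so the level was higher in CD4-Cre while fewer barcodes carried it. In the monocyte gate 4 UMIs in control stood against 19 in CD4-Cre, 11 of which were in 1 barcode (log2 ratio 1.70, 0.11 to 3.71).

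**Figure D3:**
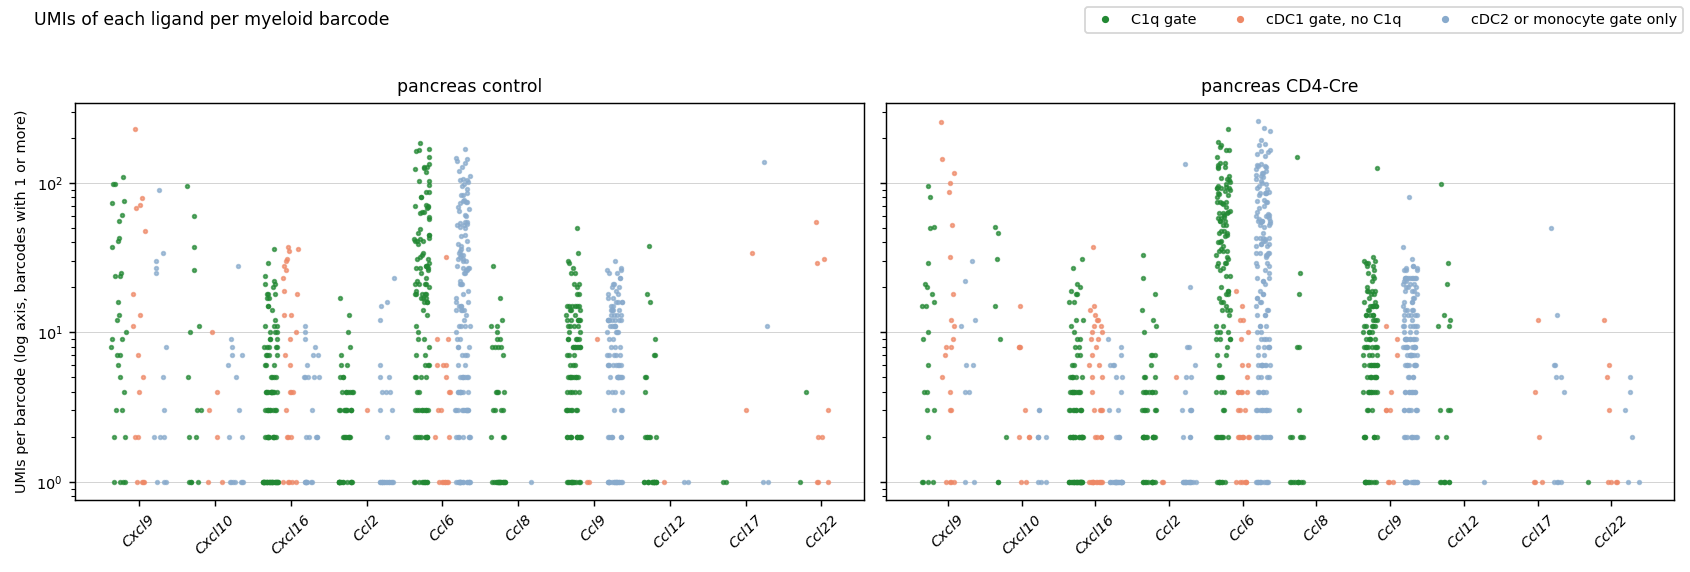
UMIs of each ligand per barcode (log axis) for barcodes with 1 or more UMI, in the control (left) and CD4-Cre (right) pancreas libraries; green points met the C1q gate, orange points the cDC1 gate without it, and blue points the cDC2 or monocyte gate only. Ccl6 and Ccl9 form dense columns, while Ccl8, Ccl17 and Ccl2 each have a single barcode far above the rest in one library, with 149, 139 and 133 UMIs.

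The CCR4 ligands were the rarest. Ccl17 (ENSMUSG00000031780, chr8:94810453-94812036, plus strand) was counted 199 times in 14 control barcodes and 135 times in 21 CD4-Cre barcodes. A single control barcode of the cDC2 gate held 139 of those UMIs. In the cDC2 gate the level was 69.4 CPM (58.9 to 81.3) in control and 31.4 CPM (25.5 to 38.4) in CD4-Cre, for a log2 ratio of -1.14 (-1.53 to -0.77). Without the richest barcode of each library the sign turned, to 1.15 (0.28 to 2.10), from 15 and 46 UMIs. Ccl17 was in 6 of 192 control and 14 of 234 CD4-Cre cDC2 barcodes. The cDC1 gate held 37 and 21 UMIs, 34 and 12 of them in 1 barcode each. Without those barcodes more UMIs remained in CD4-Cre than in control, too few for a ratio. The monocyte gate held none in either library.

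Ccl22 (ENSMUSG00000031779, chr8:94745590-94751699, plus strand) lay in the cDC1 gate and in the Fscn1 and Cacnb3 group. In the cDC1 gate it stood at 141 CPM (117 to 168), 125 UMIs in 9 of 49 control barcodes, and at 27.1 CPM (18.3 to 38.6), 30 UMIs in 8 of 70 CD4-Cre barcodes. The log2 ratio was -2.38 (-3.01 to -1.80), and -2.31 (-3.14 to -1.54) without the richest barcode of each library. It was -1.46 (-2.32 to -0.65) without barcodes holding T or B cell UMIs, from 39 and 20 UMIs. The Fscn1 and Cacnb3 group held 316 CPM in control and 152 CPM in CD4-Cre, for a log2 ratio of -1.05 (-1.69 to -0.44). The C1q and monocyte gates held at most 5 UMIs in a library, and the cDC2 gate 0 in control and 17 in CD4-Cre.

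Genes of mature dendritic cells moved with Ccl22. In the cDC1 gate 8 of 10 of them were lower in CD4-Cre by 2-fold or more, beside 4.78% of 7390 genes. The 10 genes summed to 3905 CPM in control and 1624 CPM in CD4-Cre. Among them, Fscn1, which bundles actin, was at 836 and 174 CPM, and Ccr7, the receptor that guides dendritic cells to lymph nodes, at 402 and 124 CPM. Control cDC1 barcodes with Ccl22 held the list at 13598 CPM and those without at 1257 CPM, and in CD4-Cre the values were 5257 and 1024 CPM. In the Fscn1 and Cacnb3 group itself the list stood at 11361 and 10303 CPM. Whether the lower Ccl22 of the cDC1 gate reflects fewer mature cells or less Ccl22 per cell was not tested. The type I interferon list of 10 genes went the other way in the cDC1 gate, at 217 CPM in control and 534 CPM in CD4-Cre. Of 7 genes with enough UMIs, 5 were higher by 2-fold or more, beside 2.61% of 7390 genes. Among the 5 was Isg15, at 84.7 and 205 CPM. In CD4-Cre the list was carried by the 10 cDC1 barcodes with Cxcl10, which held it at 2360 CPM against 128 CPM in the 60 without.

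T barcodes held few UMIs of these genes, and those of Ccl6 and Cxcl16 lay mainly in barcodes that also held myeloid genes. Those barcodes, with 3 or more Lyz2 UMIs or 10 or more of the class II genes H2-Aa and H2-Ab1, numbered 37 of 2319 in control and 45 of 4041 in CD4-Cre. They carried 75.8% and 87.2% of the Ccl6 UMIs of T barcodes and 75.0% and 83.6% of those of Cxcl16. Ccl22 had 1 UMI in control T barcodes and 88 in CD4-Cre, for a log2 ratio of 5.65 (3.13 to 10.97). The 88 came from 2 barcodes. Of them, 76 were in 1 barcode that also held 100 UMIs of Fscn1, 570 of Cd74 and 11 of Cd3e, and all 88 lay in barcodes with myeloid genes.

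Cxcl10 lay elsewhere. It had 93 UMIs in 23 control T barcodes and 89 UMIs in 28 CD4-Cre T barcodes, of which 91 and 81 lay in barcodes without the myeloid genes. Its level was 9.92 CPM (8.00 to 12.1) in control and 5.40 CPM (4.34 to 6.64) in CD4-Cre, for a log2 ratio of -0.88 (-1.31 to -0.44), and -0.9991 (-1.45 to -0.55) without the barcodes holding myeloid genes. B barcodes, as a further background, held 1.25 and 0.864 CPM. The T barcodes with Cxcl10 held the type I interferon list at 310 CPM in control against 168 CPM in the others, and at 399 against 141 CPM in CD4-Cre.

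Across the 5 gates, the number of ligands past 2-fold was small. The C1q gate had 1 of 8 ligands with at least 20 UMIs past 2-fold, Cxcl9, lower in CD4-Cre, beside 6.01% of 8591 genes past it either way (3.99% lower and 2.01% higher). The cDC1 gate had 3 of 7 (Cxcl16, Ccl17 and Ccl22, all lower in CD4-Cre), beside 7.39% of 7390 genes (4.78% lower and 2.61% higher). Markers of some other cells were lower in that gate too. The macrophage list had 6 of 8 genes lower by 2-fold or more and 1 higher, Mrc1, at 15.8 CPM in control and 38.8 CPM in CD4-Cre. The B cell list stood at 169 CPM in control and 10.8 CPM in CD4-Cre, and the islet list at 304 and 28.9 CPM. Other lists were higher in CD4-Cre, among them exocrine markers at 169 and 345 CPM. T cell markers stood at 333 and 362 CPM, and plasma cell markers at 154 and 179 CPM. In barcodes of the cDC1 gate alone, where macrophage markers were not lower in CD4-Cre, Cxcl16 had a log2 ratio of -1.02 (-1.27 to -0.78) and Ccl22 one of -2.46 (-3.09 to -1.88). B cell markers there were at 51.3 and 12.2 CPM and islet markers at 130.3 and 25.5 CPM, and their part was not tested. The cDC2 gate had 1 of 9 (Ccl17, lower), beside 5.06% of 9660 genes (3.52% lower and 1.54% higher). The monocyte gate had 2 of 8 (Cxcl9 and Ccl12, both higher), beside 4.16% of 8447 genes (1.86% lower and 2.3% higher). T barcodes had 1 of 6 (Ccl22, higher), beside 3.73% of 11574 genes (2.38% lower and 1.36% higher). In the cDC2 gate, T barcodes and C1q gate the ligands' count is 1, so the shares can hardly be compared with the background. The median log2 ratio of the ligands was 0.32 in the C1q gate, -0.61 in the cDC1 gate, -0.31 in the cDC2 gate, 0.49 in the monocyte gate and 0.18 in T barcodes. Of the calls, those of Ccl17 in the cDC2 gate and Ccl22 in T barcodes rested on 1 barcode. That of Ccl17 in the cDC1 gate rested on 1 barcode in each library. The call of Cxcl9 in the C1q gate lay close to the 2-fold line, at -1.01 on the log2 scale. In the monocyte gate the Cxcl9 call rested on 30 UMIs in control, all in 1 barcode, and 146 in CD4-Cre. The Ccl12 call there rested on 4 and 19 UMIs. Because the gates share barcodes, the values of the cDC2 and monocyte gates do not stand apart from those of the C1q gate.

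**Figure D4:**
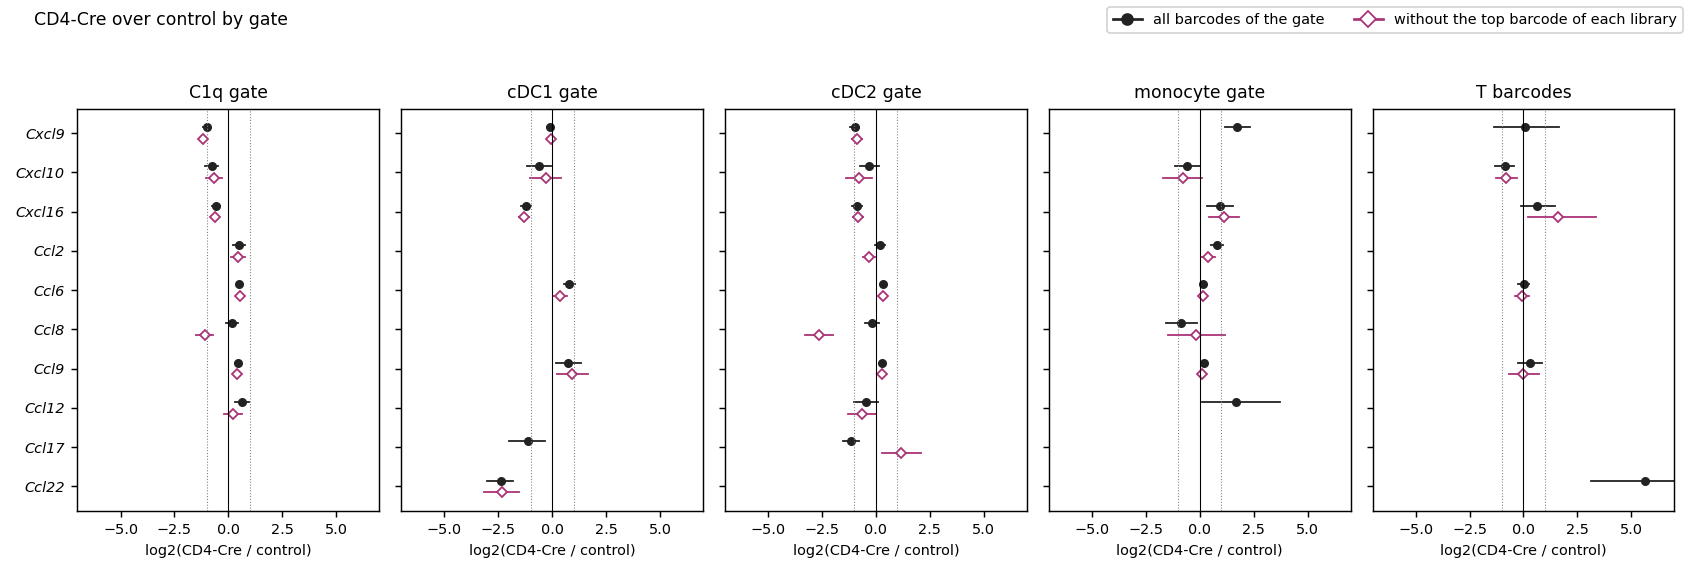
Log2 ratio of CD4-Cre over control for each ligand in the 5 gates, with exact 95% counting intervals, over all barcodes (filled circles) and without the barcode richest in that ligand in each library (open diamonds); dotted lines mark 2-fold, and a ligand without a symbol had fewer than 20 UMIs or none in 1 library. Ccl8 in the C1q gate moves from 0.18 to -1.10 and Ccl17 in the cDC2 gate from -1.14 to 1.15, while Cxcl16 and Ccl22 in the cDC1 gate stay beyond 2-fold lower.

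Across the 350 control and 386 CD4-Cre barcodes that met a myeloid gate, the ligands formed groups. Ccl6 and Ccl9 had a Pearson r of 0.78 in control and 0.86 in CD4-Cre, on log2 UMIs per 10000. Cxcl9 had an r of 0.55 and 0.59 with Cxcl10 and of 0.55 and 0.56 with Cxcl16. Cxcl16 and Ccl6 lay on different barcodes, with an r of -0.50 and -0.37, as did Cxcl9 and Ccl6, at -0.45 and -0.32. Ccl17 and Ccl22 had an r of 0.30 and 0.62, with only 2 and 7 barcodes holding both. These values describe barcodes that share a library and differ in depth, and carry no test.

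**Figure D5:**
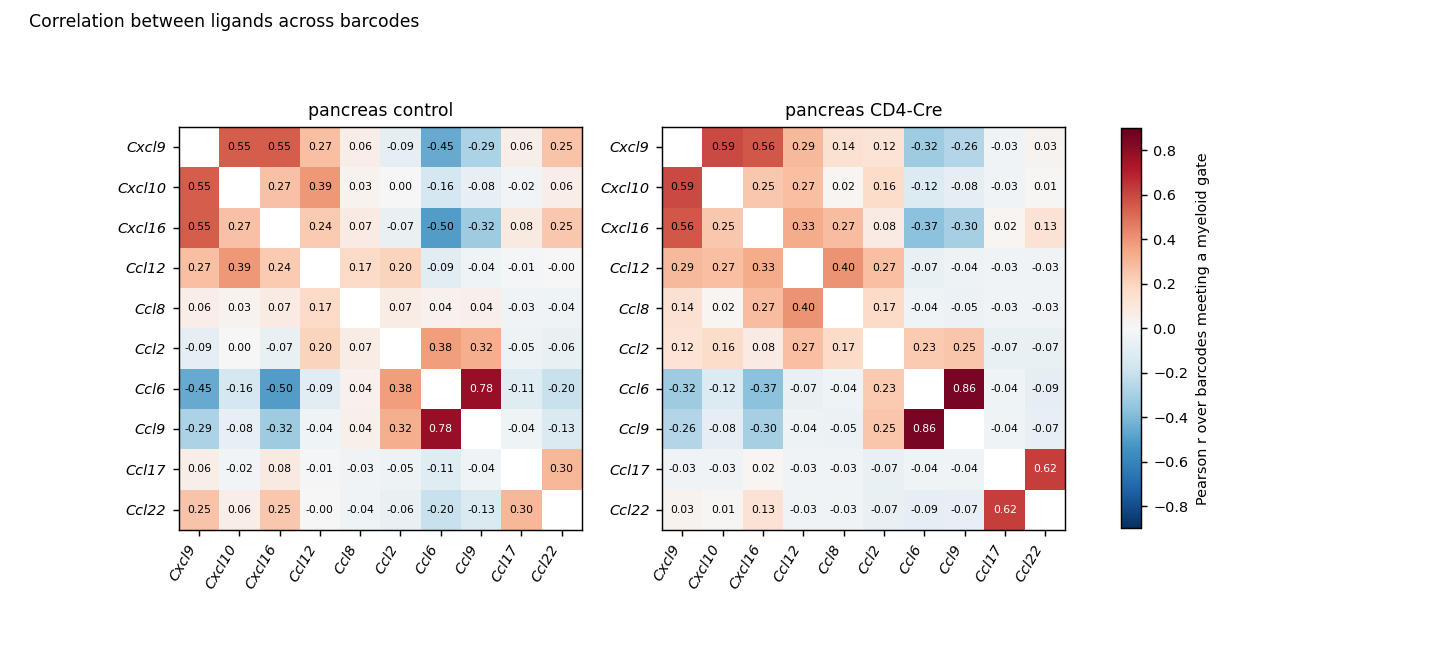
Pearson r between the 10 ligands (log2 of 1 plus UMIs per 10000) over barcodes that met a myeloid gate, 350 in the control library (left) and 386 in CD4-Cre (right). Red cells are positive and blue cells negative: Ccl6 with Ccl9 is the strongest pair in both libraries, and Cxcl9 and Cxcl16 are negative with Ccl6.

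The genes with the most similar pattern, among 4501 with at least 100 UMIs in each library, also differed by ligand. For Cxcl9 they were Serpina3g (mean r 0.71), Serpina3f, Cxcl10, Dnase1l3 and Cxcl16, the first a serine protease inhibitor gene. For Ccl6, after Ccl9, they were Fcrls (0.75), Retnla, Dok2 and Ecm1, of which Retnla is a marker of alternatively activated macrophages. Ccl9 shared Fcrls (0.74), Dok2 and Retnla with it. Cxcl16 was closest to Aif1 (0.65), which encodes the macrophage protein Iba1. Ccl8 was closest to Cbr2 (0.47) and the scavenger receptor Stab1 (0.46), and the mannose receptor Mrc1 (0.35) was among the genes closest to Ccl2. Cxcl10 was closest to Cxcl9 (0.57), Ccl12 to Ms4a7 (0.36) and Ccl22 to Ccl17 (0.46) and Serpinb6b (0.37). Ccl22 itself had too few UMIs to be among the genes compared. Of those compared, Dcstamp (0.23) was closest to Ccl17, below the mean r of 0.46 between Ccl17 and Ccl22. Dcstamp ranked 2 in control and 26 in CD4-Cre, and Ccl17 ranked 28 and 1 for Ccl22. Of the 50 closest genes over all ligands, 34 were also among the 5 closest in control alone, and 34 in CD4-Cre alone.

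The receptors of these ligands lay mostly on other cells. In T barcodes, Cxcr3 was at 144 CPM in control and 132 in CD4-Cre, and Cxcr6 at 260 and 196 CPM. Ccr2 was at 554.9 and 521.5 CPM in the monocyte gate and at 101 and 78.4 CPM in T barcodes. Of the 7 receptor genes, 0 were past 2-fold in T barcodes, with log2 ratios from -0.41 for Cxcr6 to 0.96 for Ccr4. Of 25 other chemokine ligands counted, 12 had enough UMIs in the C1q gate. In CD4-Cre 9 of them were lower by 2-fold or more and 0 higher, beside 3.99% of 8591 genes lower and 2.01% higher. The median log2 ratio of the 12 was -1.31, beside -0.015 for all genes. The 9 lower were Ccl5, Pf4, Cxcl13, Ccl24, Ccl4, Cxcl14, Ccl3, Ccl7 and Xcl1. Ccl5 stood at 879 and 341 CPM, Pf4 at 756 and 260, Cxcl13 at 551 and 264, and Ccl24 at 395 and 186. Cxcl2 lay on the other side, at 294 and 410 CPM and under 2-fold. In the cDC2 gate Cxcl13 had only 3 and 2 UMIs, against 1076 and 354 of Pf4. The cDC1 gate held 664 and 0 UMIs of Cxcl13. These values are over all barcodes of each gate, and that of Xcl1 in the C1q gate rested on 22 and 1 UMIs. The lower values of the C1q gate stood beside its lower resident macrophage list. NK cell markers were lower there too, at 55.2 and 17.6 CPM, of which Klra8 made up 49.8 and 15.6 CPM. T cell markers stood at 229 and 179 CPM, and plasma cell markers, the other way, at 213 and 234 CPM. The part of these lists in the lower values was not tested.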

How the data were processed

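Single-cell 5′ libraries were made with the 10X Genomics kit, per the labels' protocols, 1 library per genotype and tissue. The authors deposited whole-number UMI counts per gene and barcode, with no normalization. Cell Ranger and the build mm10 are named in the submitters' processing notes, and the matrix header gives software version 3.0.0. Deposited barcode and feature files hold names only. The libraries listed 3059 to 6963 barcodes with 14851217 to 32798133 UMIs. Barcodes with at least 500 genes and at most 10% mitochondrial UMIs were kept. Simulated doublets (2 per barcode, 2000 variable genes, 30 components) marked 0.8% per 1000 barcodes listed for removal, 164 in the control and 388 in the CD4-Cre pancreas library.

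UMIs were summed over each gate, divided by the gate's total UMIs and scaled to CPM, with exact Poisson intervals. Ratios have exact conditional binomial intervals and shares Clopper-Pearson intervals. A ligand entered a ratio with at least 20 UMIs over both libraries, and 2-fold marked a large difference. Shares were taken after thinning to 2000 UMIs, which left out 3 and 2 C1q barcodes, 0 and 2 cDC1 barcodes and 203 and 300 T barcodes in control and CD4-Cre. Ratio code was tested on simulated data. The named genes were all 10 ligands, the 5 genes most like each ligand, and genes of fixed lists past 2-fold. Symbols other than the ligands that are given under 2-fold are named for their role and were chosen after their values were seen. The members and lists were chosen with earlier results of these data known. Gene positions are from GENCODE M21 (GRCm38). Upstream sequences came from RefSeq for 8 of 10 ligands. Alternatives used edgeR 4.0.16 and DESeq2 1.42.0 for scaling only, under R 4.3.3. Python 3.11.15, numpy 2.4.6, scipy 1.17.1 and matplotlib 3.10.9 were used.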

Additional observations from a re-analysis of the deposited data

Results flagged for a closer look

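Cxcl10 in T barcodes pointed in opposite directions in the 2 tissues. The log2 ratio, with control as the base, stood at -0.88 (-1.31 to -0.44) in the pancreas and 1.37 (0.60 to 2.22) in the lymph node. The lymph node value came from 17 UMIs in 7 of 2724 control T barcodes and 80 UMIs in 16 of 5270 CD4-Cre T barcodes. Each group was 1 library, tissue, age and cell selection differed together, and the difference was not tested.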

How the results depend on the processing

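No paired analysis was possible because each group had 1 library. The intervals hold counting error only, and the gates overlap, so no value here carries a replicate check. Of 38 ligand ratios, 22 kept their sign in every alternative that gave a value, out of 13 alternatives. The barcode with the most UMIs of a ligand in each library, and the T barcodes with myeloid genes, were left out as alternatives chosen after seeing the data. The cause of each change below was not tested. Median log2 ratio: in the C1q gate it went from 0.32 to -0.15 with equal weight for each barcode and to -0.20 without the richest barcodes. In the cDC1 gate it went from -0.61 to 0.20 without barcodes holding T or B cell UMIs and to 0.081 after thinning to 2000 UMIs. In the cDC2 gate it went from -0.31 to 0.20 without barcodes holding T or B cell UMIs. In the monocyte gate it went from 0.49 to -0.33 without barcodes of more than 1 myeloid gate. In T barcodes it went from 0.18 to -0.84 with equal weight, -0.65 after thinning and -0.9991 without barcodes holding myeloid genes. Each median is over the ligands with enough UMIs under its setting, and some settings left ligands out. Without the barcodes holding myeloid genes, only Cxcl10, Ccl6 and Ccl9 remained in T barcodes, and -0.9991 is the Cxcl10 value. Ligands past 2-fold: in the C1q gate 1 became 0 with no doublets removed, with all barcodes listed, with edgeR TMM library sizes, with DESeq2 size factors and with a pseudocount of 10 CPM. It became 5 without barcodes of more than 1 gate, and 2 without T or B cell UMIs or without the richest barcodes. In the cDC1 gate 3 became 0 after thinning. In the cDC2 gate 1 became 3 without barcodes of more than 1 gate, 2 with gates doubled or without the richest barcodes, and 0 with equal weight or the pseudocount. In the monocyte gate 2 became 1 with a minimum of 50 UMIs, with the pseudocount or after thinning. In T barcodes 1 became 3 with no doublets removed, all barcodes listed or equal weight, 2 without B cell UMIs, and 0 with gates doubled or the pseudocount. Ccl17 in the cDC2 gate turned to 1.15 without the richest barcodes.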

Other observations

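The lymph node libraries, enriched for T cells, held few barcodes of the myeloid gates: 4 and 5 in the C1q gate and 11 and 2 in the cDC1 gate, for control and CD4-Cre. Even so, Cxcl9 was counted in 6 of the 11 control cDC1 barcodes (27 UMIs, 616 CPM, 406 to 896), and Ccl2 in all 5 of the CD4-Cre C1q barcodes (13 UMIs). Lymph node T barcodes with Cxcl10 held the type I interferon list at 1761 CPM in 7 control barcodes and 3403 CPM in 16 CD4-Cre barcodes, against 265 and 332 CPM in the others. Median depths were 7160 and 4706 UMIs with Cxcl10 and 4657 and 4460 without.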
